A study of Mus musculus with 37 samples.

Results

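The enzymes that build triglyceride from glycerol phosphate or monoacylglycerol, and the lipase that cleaves its last acyl chain, were followed across 8 groups of mouse livers. The genes were Gpam, Agpat2, Agpat3, Lpin1, Lpin2, Dgat1, Dgat2, Mogat1 and Mgll, chosen by name with earlier results of these data known. All probes whose name begins with one of these 9 symbols were taken, which gave 17 probes of the 30146 on the assay, for 9 of its 21450 genes. Each of the 17 passed the filter on low counts, those of Mogat1 only through treated mice, since no vehicle mouse had more than 7 counts on them. A probe is named here by its gene and its number on the assay, as in Mgll_75873.

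The livers came from adult F0 Crl:CD1(ICR) mice, an outbred stock, with wild-type genotype and no transgene. The mice received deionized water (vehicle, 0 mg/kg) or the ammonium salt of HFPO-DA, a short-chain PFAS, by gavage once daily, at 5, 0.5 or 0.1 mg/kg. At the first dose males were about 6 and females about 11 weeks of age. Treatment of males lasted 84 to 85 doses and ended after they had mated, while females had 53 to 65 doses that ended late in lactation, so sex cannot be told apart from age, number of doses and lactation in any comparison of the sexes. Vehicle and 0.1 mg/kg groups held 5 mice of each sex, the 0.5 mg/kg groups 5 males and 4 females, and the 5 mg/kg groups 4 males and 4 females. Fixed liver sections were scraped from slides and assayed by TempO-Seq, in which a pair of probes is ligated on its target RNA and the ligated products are counted by sequencing. Values are CPM, that is, counts scaled to a common library total after TMM normalization, and since each probe reads 1 short site, levels are compared between mice and not between probes or genes.

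The 19 males had between 2101495 and 10548222 counts each and the 18 females between 7952605 and 13878254, and the males at 5 mg/kg had the lowest median, 5117935, of the 8 groups. The lowest total belonged to male replicate 3 at 5 mg/kg. All 7 hepatocyte markers with a probe were detected in every mouse, while the adipocyte markers Adipoq, Lep, Plin1 and Retn stayed below 1 CPM in all 37 mice. Of the other 4 genes on the adipocyte list, Adrb3 had counts in 36 mice, with a median of 6.02 and a highest value of 37.9 CPM, and Slc2a4, Cidea and Cfd reached at most 9.35, 6.18 and 3.23 CPM. The summed adipocyte list ranged from 2.98 to 20.3 CPM in vehicle males and 8.04 to 21.3 in males at 5 mg/kg, and from 6.56 to 18.2 in vehicle females and 3.06 to 20.7 in females at 5 mg/kg. Of its 8 genes 3 were tested, and Cidea alone was called, with a mean of 4.32 CPM in males at 5 mg/kg and no count in vehicle males. Cidea passed the filter on low counts through the males at 5 mg/kg, so its call is not independent of the filter. The summed hepatocyte list ranged from 12510 to 18910 CPM in vehicle males and 11350 to 13390 in males at 5 mg/kg, and from 17650 to 23580 in vehicle females and 14500 to 18010 in females at 5 mg/kg. Tat, Cps1 and Ass1 of this list fell in males, and Ttr and Ass1 in females. Of the other lists, 2 of 8 endothelial markers (Kdr and Oit3) and 1 of 5 tested pancreatic markers (Prss1) fell in males, and no marker of Kupffer cells, stellate cells, cholangiocytes or lymphocytes was called in either sex. Among all tested probes at 5 mg/kg, 4.21% rose and 8.49% fell in males, and 2.26% rose and 2.26% fell in females. The part of these markers in the results that follow was not tested. In whole sections, fewer cells of a type and less RNA per cell cannot be told apart.

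Triglyceride is assembled in the membrane of the endoplasmic reticulum by a series of acyl transfers. Glycerol phosphate is acylated by GPAT and then by AGPAT enzymes to phosphatidate, lipins remove the phosphate to give diacylglycerol, and a DGAT adds the last fatty acid. MGAT enzymes reach diacylglycerol by another route, from monoacylglycerol, and monoacylglycerol lipase ends the breakdown. In the liver the pathway feeds both lipid droplets and the lipoproteins that carry triglyceride to the blood, and several of its genes are known targets of PPARα, SREBP-1c and fasting hormones.

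At 5 mg/kg members were called in both directions in males and upward in females. In males, Mgll, Gpam and Mogat1 rose and Lpin1 and Dgat2 fell. In females, Mgll, Gpam and Mogat1 rose as well, joined by Lpin2 and Agpat3, and no member fell. Counted by probe, edgeR called 4 raised and 5 lowered in males (adjusted p under 0.10), against 4.21% of all 18570 tested probes raised, 8.49% lowered and 12.7% called in either direction. In females it called 9 raised and 0 lowered, against 2.26% raised, 2.26% lowered and 4.52% in all. The raised probes of both sexes include Mogat1, which passed the filter on low counts through treated mice, so its calls are not independent of the filter. Without female replicate 1 at 5 mg/kg the count in females was 5. The median log2 fold change of the 17 probes was −0.33 in males, where that of all probes was −0.12, and 0.58 in females, where that of all probes was −0.01.

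The lower doses moved few members. At 0.1 mg/kg edgeR called no member in either sex, no member had an unadjusted p under 0.05 and DESeq2 called no member. Of all probes 0.0% passed by edgeR in males and 0.0% in females. The study, which used DESeq2, reported very few altered genes at this dose in each sex. The middle dose, 0.5 mg/kg, gave 1 called probe in males, of Mgll, against 0.625% of all probes, and 1 in females, of Lpin2, against 0.113%. Between 0.5 and 5 mg/kg, 7 member probes differed in males (2 raised and 5 lowered, 8.73% of all probes called) and 1 in females (1.48% of all probes). The difference in response between the sexes, tested as an interaction, was called by edgeR for 0 member probes at 0.1 mg/kg (0.0% of all), 0 at 0.5 mg/kg (0.0108%) and 1 at 5 mg/kg (0.63%), which was again of Mgll. An unadjusted interaction p under 0.05 was seen for 0, 3 and 10 of the 17 member probes, and for 829, 952 and 1985 of all 18570 probes. The 3 were those of Lpin2.

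**Figure D1:**
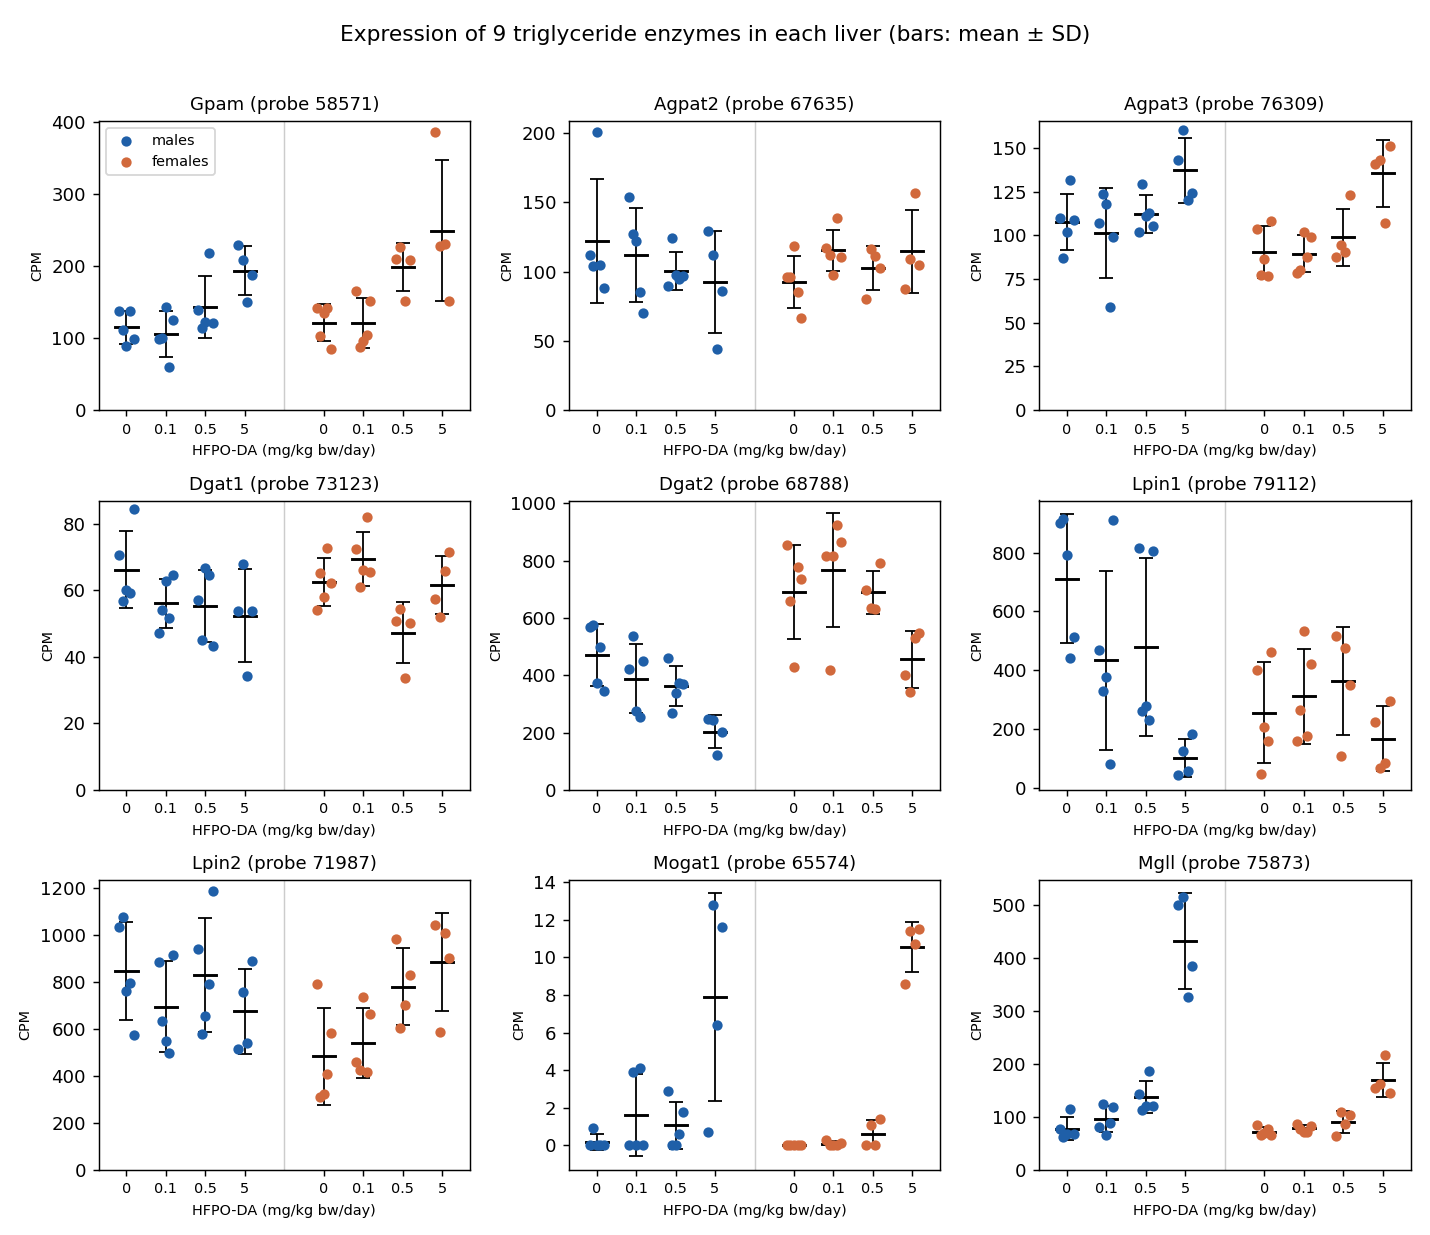
Expression (CPM, y axis, linear) of the probe with the highest total count of each of the 9 genes, in each mouse, by dose (mg/kg) and sex. Points are mice (males blue, females orange), the thick bar is the group mean and the thin bar ± SD. All Mgll values of males at 5 mg/kg lie above 300 CPM and all other males below 200, while Lpin1 spreads over a wide range within most groups.

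**Figure D2:**
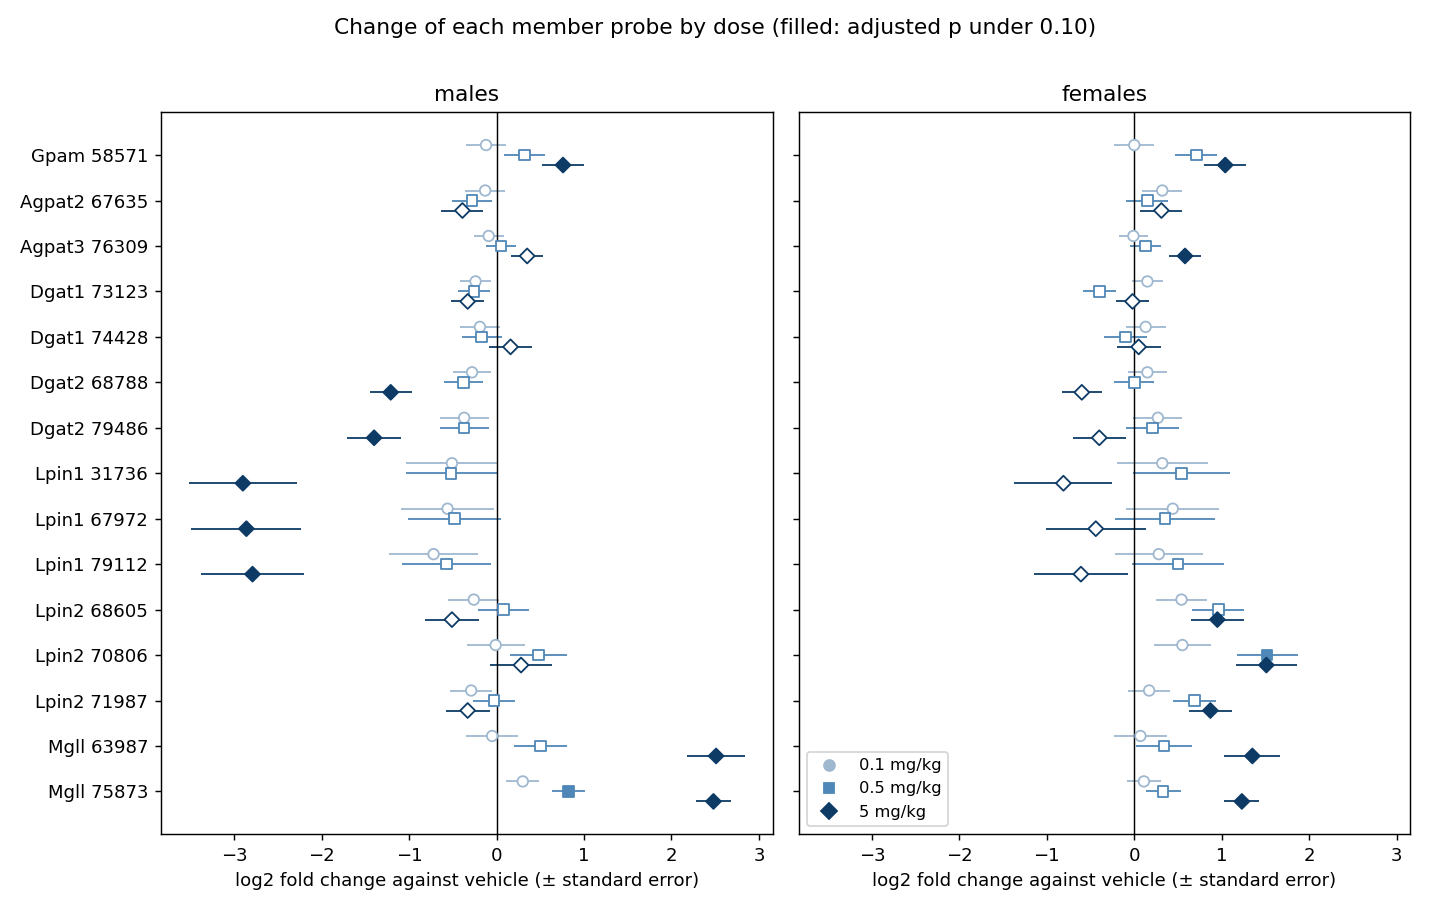
Log2 fold change against the vehicle group of the same sex (x axis) with its standard error, for 15 of the 17 member probes (y axis) at the 3 doses, from the edgeR fit of 37 mice. Filled symbols have an adjusted p under 0.10. The 2 probes of Mogat1 are left out because vehicle females had no count on them. The filled points at 5 mg/kg lie on both sides of 0 in males and only to its right in females.

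Gpam encodes the mitochondrial glycerol-3-phosphate acyltransferase, which starts the pathway. Its gene lies on the minus strand at chr19:55067268-55127238 (GENCODE M21, GRCm38, as for the other genes). The vehicle males had 137.3, 110.5, 88.6, 137.9 and 98.6 CPM, the males at 0.5 mg/kg 138.8, 113.9, 122.3, 217.8 and 120.9, and the males at 5 mg/kg 229.0, 208.5, 149.3 and 186.7. Every male at 5 mg/kg lay above every vehicle male, though the lowest treated male came close to the highest control. The vehicle females had 141.3, 102.6, 135.0, 141.0 and 85.1 CPM, the females at 0.5 mg/kg 209.2, 225.8, 150.7 and 208.6, and the females at 5 mg/kg 384.9, 228.1, 230.8 and 151.3. In females both the 0.5 and the 5 mg/kg groups lay wholly above the controls, and 1 mouse at 5 mg/kg stood far above the others. At the top dose Gpam rose on the log2 scale by 0.76 ± 0.24 in males (adjusted p = 0.0411) and by 1.04 ± 0.24 in females (0.0049). Females at 0.5 mg/kg differed by 0.71 ± 0.24, which did not pass after adjustment (unadjusted p = 0.00476, adjusted p = 0.893). The difference between the sexes at 5 mg/kg was −0.28 ± 0.34 (adjusted p = 0.898), so a difference of either sign was not detectable. The call in males was lost without male replicate 1 at 5 mg/kg (adjusted p = 0.14) or vehicle male replicate 3 (0.115), and that in females without female replicate 1 at 5 mg/kg (0.11).

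Of the RefSeq promoter windows (GRCm38.p6, 250 bases before an annotated start, on the gene's strand), 11 belong to 7 of the 9 members, and 4 motifs were searched in them on both strands. CACGTG is the E-box core, CCAAT the box bound by NF-Y, TCACCCCA the core of the sterol regulatory element of the LDL receptor promoter, and AGGTCA the core motif of many nuclear receptors, searched as 2 copies with 1 base between and up to 2 mismatches in all. These were found in 6.04%, 33.8%, 1.36% and 3.25% of 32536 windows of the same length. A window of Gpam at chr19:55127239-55127488 (minus strand) is shown because it holds 2 of the motifs, TCACCCCA at −165 to −158 and CCAAT, on the other strand, at −74 to −70 from the start, both in capitals. No other member window held TCACCCCA, and none of the matches shown here overlapped another.
Gpam: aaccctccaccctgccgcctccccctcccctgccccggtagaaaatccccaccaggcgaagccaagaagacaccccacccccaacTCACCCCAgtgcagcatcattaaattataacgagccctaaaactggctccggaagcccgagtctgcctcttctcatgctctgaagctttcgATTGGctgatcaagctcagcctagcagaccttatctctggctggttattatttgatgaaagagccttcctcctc

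Agpat2 (chr2:26593057-26604417) and Agpat3 (chr10:78269178-78352489) encode acyltransferases that turn lysophosphatidate into phosphatidate. Agpat3 had 103.7, 77.4, 86.2, 76.6 and 108.1 CPM in vehicle females and 141.0, 142.9, 107.1 and 150.9 at 5 mg/kg. All but 1 of the treated females exceeded every control, and the remaining one fell just below the highest control. The log2 fold change was 0.58 ± 0.18 (adjusted p = 0.0532). This call was lost with no filter on low counts (adjusted p = 0.181) and without any of vehicle replicates 2, 3 and 4 or treated replicates 1, 2 and 4, when the adjusted p reached up to 0.205. In males the values were 109.7, 87.3, 101.9, 131.7 and 108.7 CPM with vehicle and 143.4, 160.6, 120.4 and 124.4 at 5 mg/kg. These overlapped, and the change of 0.35 ± 0.18 was not called (adjusted p = 0.226), though it was by DESeq2 (0.0674) and with counts thinned to the smallest total (0.0882). Agpat2, the isoform whose loss causes congenital lipodystrophy, was not called at any dose. It changed by −0.39 ± 0.24 in males at 5 mg/kg (adjusted p = 0.344) and by 0.31 ± 0.24 in females (0.803), with group ranges of 43.9 to 129.0 and 87.3 to 156.9 CPM that overlapped those of the controls.

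Lpin1 and Lpin2 encode phosphatidate phosphatases, which make the diacylglycerol used by the DGAT enzymes, and lipin 1 also acts in the nucleus as a transcriptional coregulator. The genes lie at chr12:16535669-16610966 and chr17:71182560-71249817. Lpin1 showed the largest decrease of the 9 genes in males at 5 mg/kg. On its most abundant probe, Lpin1_79112, vehicle males had 900.3, 913.0, 790.0, 439.8 and 514.4 CPM. The males at 5 mg/kg had 43.9, 126.2, 56.6 and 182.9 CPM. All 4 lay below the lowest control, with a mean 6.95-fold lower. Vehicle females were lower and less even, with 399.7, 48.2, 207.1, 158.4 and 462.0 CPM, and the females at 5 mg/kg, with 223.5, 68.0, 83.0 and 294.6, lay entirely inside that range.

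All 3 probes of Lpin1 were called lowered in males at 5 mg/kg. On Lpin1_67972 only 3 of these 4 males had a count. The log2 fold changes were −2.79 ± 0.59 on Lpin1_79112 (adjusted p = 0.00117), −2.90 ± 0.62 on Lpin1_31736 (0.00124) and −2.86 ± 0.63 on Lpin1_67972 (0.00202). Across the alternatives for these 3 probes the adjusted p stayed at or below 0.0121, and the change on Lpin1_67972 was −3.69 without male replicate 4 at 5 mg/kg. Against 0.5 mg/kg the change was −2.22 ± 0.58 to −2.38 ± 0.62, and called on all 3, with −3.21 on Lpin1_67972 without the same mouse. In females the changes at 5 mg/kg were −0.61 ± 0.54, −0.81 ± 0.56 and −0.44 ± 0.57, none of them called (adjusted p = 0.737 to 0.986). The hepatocyte marker Tat, an amino acid catabolic gene induced by glucocorticoids, ranged from 7.04 to 57.3 CPM in vehicle males and from 3.54 to 8.63 in males at 5 mg/kg, and from 11.1 to 26.2 and 13.9 to 38.5 CPM in the same groups of females. Its part in the Lpin1 result was not tested. The lower doses of males held both low and high Lpin1 values, 468.5, 327.8, 377.3, 80.8 and 910.3 CPM at 0.1 mg/kg and 815.5, 261.7, 279.7, 229.9 and 806.0 at 0.5 mg/kg. Both groups reached up to the control range and below it, and neither change was called.

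Lpin2 went the other way in females. Its most abundant probe, Lpin2_71987, had 792.8, 308.7, 322.0, 406.7 and 581.0 CPM in vehicle females, 981.2, 602.8, 699.6 and 830.6 at 0.5 mg/kg, and 1042.1, 586.0, 1007.8 and 900.6 at 5 mg/kg. All but 1 of the females at 5 mg/kg lay above every control. Probe Lpin2_70806 separated the groups fully, with 29.1, 8.7, 18.1, 8.8 and 38.4 CPM in controls and 81.6, 42.8, 51.6 and 59.8 at 5 mg/kg. The log2 fold changes at 5 mg/kg were 1.51 ± 0.35 on Lpin2_70806 (adjusted p = 0.00489), 0.87 ± 0.25 on Lpin2_71987 (0.0381) and 0.95 ± 0.30 on Lpin2_68605 (0.0763). The call on Lpin2_70806 held under all 18 alternatives. Those on Lpin2_71987 and Lpin2_68605 were lost without female replicate 1 or 3 at 5 mg/kg or vehicle female replicate 2, 3 or 4, that on Lpin2_68605 also without female replicate 4 at 5 mg/kg and in a robust fit, with adjusted p up to 0.153 and 0.266.

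Lpin2_70806 was already 1.52 ± 0.35 higher in females at 0.5 mg/kg on the log2 scale (adjusted p = 0.0774). The call was lost in 10 of 18 alternatives, among them the removal of vehicle female replicate 2, 3 or 4 or of female replicate 1, 3 or 4 at 0.5 mg/kg. The other probes changed by 0.96 ± 0.30 and 0.69 ± 0.25 there and were not called (adjusted p = 0.673 and 0.981). In males no Lpin2 probe was called at any dose. At 5 mg/kg the male changes were −0.33 ± 0.25, 0.28 ± 0.35 and −0.51 ± 0.31 on Lpin2_71987, Lpin2_70806 and Lpin2_68605 (adjusted p = 0.481, 0.715 and 0.33).

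Lpin2 was called higher in vehicle males than in vehicle females. Vehicle males had 1034.5, 1077.0, 761.7, 793.1 and 572.5 CPM on Lpin2_71987, a log2 difference from vehicle females of 0.81 ± 0.24 (adjusted p = 0.0739), and on Lpin2_70806 it was 1.07 ± 0.33 (0.0974). These were the only 2 member probes called between the vehicle groups, where 2.6% of all probes were. Both calls were lost without vehicle female replicate 2, 3 or 4 or vehicle male replicate 1 or 2, and in a robust fit, and the one on Lpin2_70806 also without vehicle male replicate 3 or 5. Treated females at 5 mg/kg, with a mean of 884.1 CPM on Lpin2_71987, stood near the vehicle males, with 847.8. The difference between the sexes in response at 5 mg/kg was −1.20 ± 0.36 on Lpin2_71987, −1.23 ± 0.49 on Lpin2_70806 and −1.45 ± 0.43 on Lpin2_68605, and −2.18 ± 0.77, −2.09 ± 0.80 and −2.42 ± 0.82 on Lpin1_79112, Lpin1_31736 and Lpin1_67972. None passed (adjusted p = 0.168 to 0.374), but with no filter on low counts 5 of these 6 did, all but Lpin2_70806, with adjusted p from 0.0292 to 0.0785. Lpin2_71987 also passed by DESeq2 (0.0994) and without vehicle female replicate 1 (0.0415), female replicate 2 at 5 mg/kg (0.0996) or male replicate 4 at 5 mg/kg (0.0754). Lpin2_68605 passed without vehicle female replicate 5 (0.0852), and Lpin1_67972 without male replicate 4 at 5 mg/kg (0.0617).

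The counts of the 2 lipins within a liver were therefore set side by side. The ratio of Lpin1 counts (Lpin1_79112) to Lpin2 counts (Lpin2_71987) ranged from 0.555 to 1.04 in vehicle males and from 0.0856 to 0.206 in males at 5 mg/kg. In females it ranged from 0.156 to 0.795 with vehicle and from 0.0823 to 0.327 at 5 mg/kg. The male ranges did not overlap and the female ranges did. Within groups the 2 genes varied together, with a Pearson r of 0.78 over the 37 mice after subtraction of each group's mean of log2 CPM, the closest of any 2 members. These are values of the same libraries, so the r is a description of them.

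**Figure D3:**
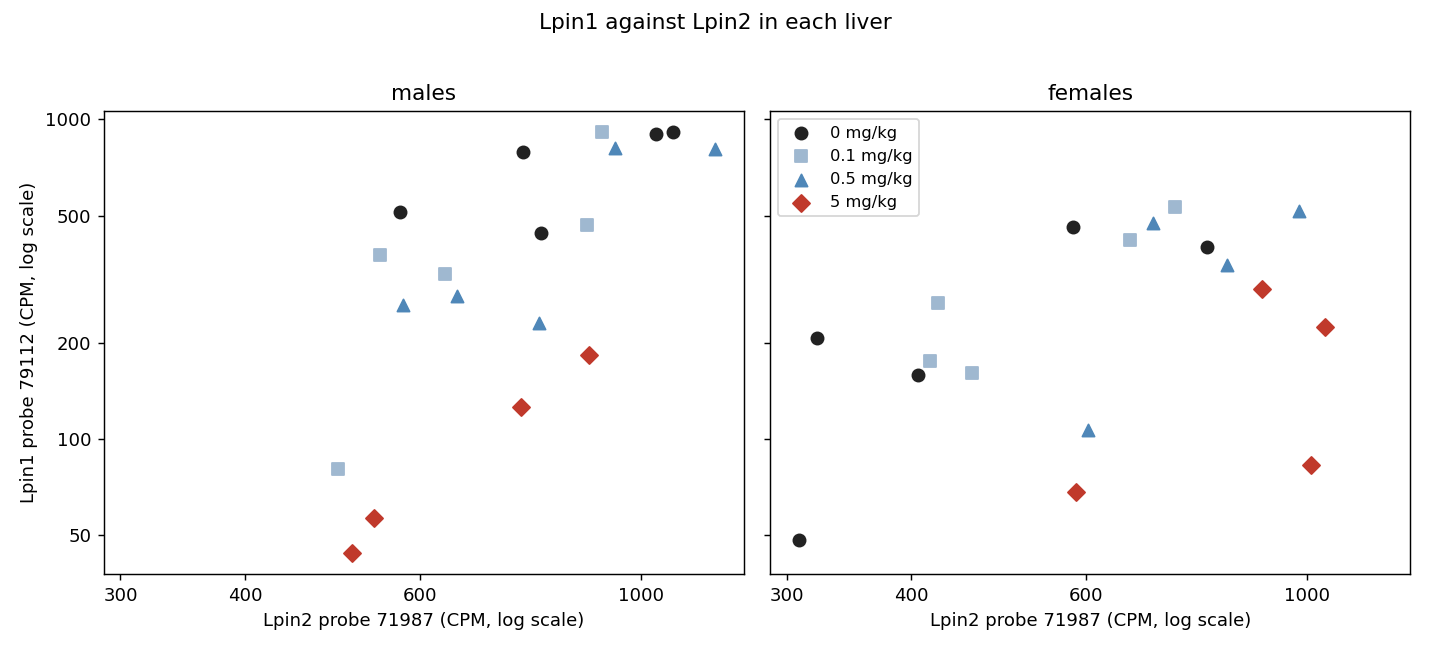
CPM of Lpin1 (Lpin1_79112, y axis) against Lpin2 (Lpin2_71987, x axis) in each mouse, males left and females right, both axes on log scales, with the dose given by colour and shape. In males the 4 mice at 5 mg/kg lie below the vehicle mice in Lpin1 at overlapping Lpin2 values, and in females the 5 mg/kg mice lie to the right of most vehicle mice.

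Dgat1 and Dgat2 encode the unrelated enzymes that complete triglyceride, and DGAT2 is the one tied to newly made fatty acids in hepatocytes. They lie at chr15:76502015-76511953 and chr7:99153658-99182719. Dgat2_68788 had 568.6, 574.0, 372.0, 499.2 and 344.1 CPM in vehicle males and 246.0, 244.4, 121.1 and 200.3 at 5 mg/kg. The groups did not overlap, and the second probe, Dgat2_79486, gave the same separation with 78.7 to 131.2 CPM against 13.1 to 73.6. The log2 fold changes were −1.21 ± 0.24 (adjusted p = 0.000424) and −1.40 ± 0.31 (0.00215), and were called under all alternatives run. The decrease from 0.5 to 5 mg/kg was −0.83 ± 0.23 (adjusted p = 0.029) and −1.03 ± 0.31 (0.0406), and both of these calls were lost without male replicate 3 at 5 mg/kg, the shallowest library (0.133 and 0.158), and that on Dgat2_79486 also with each sex fitted apart (0.103).

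In females Dgat2_68788 had 853.2, 658.8, 428.1, 776.2 and 734.9 CPM with vehicle and 401.3, 341.4, 529.2 and 548.4 at 5 mg/kg. The treated values lay below 4 of the 5 controls. The change of −0.60 ± 0.23 was not called (adjusted p = 0.202), but it was with each sex fitted apart (0.0826), by DESeq2 (0.068) and without vehicle female replicate 3, the lowest control (0.0724). On Dgat2_79486 it was −0.40 ± 0.30 (0.778). The response at 5 mg/kg differed between the sexes by −0.61 ± 0.33 and −1.0 ± 0.43 on the log2 scale, neither called (adjusted p = 0.513 and 0.393). Dgat1 was not called in any comparison. At 5 mg/kg it changed by −0.33 ± 0.19 and 0.16 ± 0.25 on Dgat1_73123 and Dgat1_74428 in males and by −0.02 ± 0.19 and 0.05 ± 0.25 in females, and the sign of −0.02 turned when some single mice were left out and with the probes summed. The ratio of Dgat2 to Dgat1 counts (Dgat2_68788 and Dgat1_73123) ranged from 4.08 to 10.1 in vehicle males and from 3.55 to 4.58 at 5 mg/kg, and from 7.40 to 15.8 in vehicle females and from 6.59 to 8.06 at 5 mg/kg. Its medians were 8.07 and 3.67 in males and 10.7 and 7.33 in females, and the ranges overlapped in both sexes.

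Mogat1 encodes a monoacylglycerol acyltransferase that is scarce in normal mouse liver and is known to be induced in fatty liver. It lies at chr1:78510991-78538173. On Mogat1_65574 vehicle females had no count in any of the 5 mice, and the females at 5 mg/kg had 74, 125, 122 and 135 counts, or 8.6, 11.4, 10.7 and 11.5 CPM. Taking 3 counts per library as the floor for the controls, the treated mean was at least 36.5-fold higher (edgeR adjusted p = 0.0021). Probe Mogat1_69164 had no count in vehicle females and 66, 11, 74 and 82 counts at 5 mg/kg, at least 19.2-fold higher (adjusted p = 0.0147). Every treated female had counts on both probes and no control had any on either.

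Females at 0.5 mg/kg had 0, 11, 0 and 12 counts on Mogat1_65574 and 10, 13, 9 and 0 on Mogat1_69164. Each of the 4 mice had counts on at least 1 of the 2 probes, but neither was called (adjusted p = 0.925 and 0.917). The males were less even. On Mogat1_65574 vehicle males had 0, 7, 0, 0 and 0 counts and the males at 5 mg/kg 3, 116, 17 and 75, equal to 0.7, 12.8, 6.4 and 11.6 CPM. The male with 3 counts overlapped the controls in CPM. The log2 fold change was 5.33 ± 1.61 (adjusted p = 0.0314), and the call was lost with each sex fitted apart (0.122). The size of this fold rests on the 7 counts of vehicle male replicate 2, since without it all vehicle males were at 0 and the fitted value became 9.12, which depends on the prior count. Probe Mogat1_69164, with 0, 44, 0 and 23 counts at 5 mg/kg, was not called (adjusted p = 0.159). Males at 0.1 mg/kg had 26 and 17 counts on Mogat1_65574 in 2 mice and 0 in the other 3. These are low counts, and the adjusted p of the difference between the sexes at 5 mg/kg was 0.488 and 0.482 on the 2 probes.

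The Mogat1 window at chr1:78510810-78511059 (GRCm38.p6, plus strand) is shown because it alone among the member windows held the pair of nuclear receptor cores. The match, in capitals, lies at −51 to −39 from the RefSeq start with 2 mismatches. This start lies past the first base of the GENCODE gene given above, and the match falls inside that gene. A match of letters is a description of the window, and nothing was measured on it here.
Mogat1: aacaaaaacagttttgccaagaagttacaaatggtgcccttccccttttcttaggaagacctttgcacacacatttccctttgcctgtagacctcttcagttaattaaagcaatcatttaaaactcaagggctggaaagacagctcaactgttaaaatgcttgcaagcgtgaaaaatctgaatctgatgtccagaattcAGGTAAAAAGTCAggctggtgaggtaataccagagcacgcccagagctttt

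Mgll encodes monoacylglycerol lipase, which releases the last fatty acid from glycerol and also breaks down the endocannabinoid 2-arachidonoylglycerol. It lies at chr6:88724412-88828360. Its response was the strongest of the 9 genes by adjusted p in both sexes. On Mgll_75873 the vehicle males had 77.3, 61.6, 66.5, 114.2 and 66.9 CPM and the males at 0.1 mg/kg 80.8, 123.2, 64.8, 88.9 and 117.8. The males at 0.5 mg/kg had 142.1, 113.1, 120.4, 186.6 and 120.7 CPM and those at 5 mg/kg 500.6, 515.6, 326.7 and 384.6. At 0.5 mg/kg all but 1 male exceeded every control, and at 5 mg/kg all 4 exceeded every other male.

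In females Mgll_75873 had 84.0, 64.5, 70.0, 76.1 and 65.6 CPM with vehicle, 63.1, 108.2, 86.9 and 103.9 at 0.5 mg/kg and 153.3, 161.0, 216.2 and 145.6 at 5 mg/kg. The top dose stood clear of all other females, at a mean 2.35-fold that of the controls, against 5.59-fold in males. The rise on the log2 scale was 2.48 ± 0.20 in males (adjusted p = 9.32e-12) and 1.23 ± 0.20 in females (3.79e-05). The difference between the sexes was 1.25 ± 0.28 (adjusted p = 0.0256), and it was called under all 26 alternatives, with adjusted p from 0.000504 to 0.0735. Vehicle males and females differed by 0.10 ± 0.19 (adjusted p = 0.999). The male change at 0.5 mg/kg was 0.82 ± 0.19 (adjusted p = 0.0305), a call lost without vehicle male replicate 2 (0.132), without male replicate 4 at 0.5 mg/kg (0.166) and with each sex fitted apart (0.154). The female change at 0.5 mg/kg, 0.33 ± 0.20, was not called. From 0.5 to 5 mg/kg Mgll rose by 1.66 ± 0.20 in males (adjusted p = 2.87e-07) and by 0.90 ± 0.21 in females (0.0157), the latter not without female replicate 3 at 5 mg/kg or female replicate 1 at 0.5 mg/kg (0.148 for each).

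The second Mgll probe, Mgll_63987, rose by 2.51 ± 0.33 in males (adjusted p = 3.87e-07) and by 1.35 ± 0.32 in females (0.00566). The males at 5 mg/kg had 188.7, 130.6, 137.6 and 105.7 CPM against 17.7 to 43.3 in controls, and the females 80.2, 77.9, 79.6 and 56.4 against at most 54.3. Neither pair of ranges overlapped, but a vehicle female with 54.3 CPM came close to the lowest treated one. On this probe the difference between the sexes was 1.16 ± 0.45 and was not called (adjusted p = 0.356). The Mgll window at chr6:88724162-88724411 (GRCm38.p6, plus strand) is shown because it held CACGTG, in capitals, at −44 to −39, as did a window of Lpin2 at −9 to −4. That Lpin2 window precedes a RefSeq start but lies inside the GENCODE span of Lpin2.
Mgll: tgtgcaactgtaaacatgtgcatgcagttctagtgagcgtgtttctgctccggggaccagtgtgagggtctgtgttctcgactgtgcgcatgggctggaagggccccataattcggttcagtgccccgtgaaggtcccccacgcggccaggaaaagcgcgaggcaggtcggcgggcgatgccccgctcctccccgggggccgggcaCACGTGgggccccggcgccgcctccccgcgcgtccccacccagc

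Other genes of triglyceride, diacylglycerol and phospholipid metabolism were taken from lists of 41 symbols, of which 39 had a probe and 35 were tested on the probe with the highest total count. At 5 mg/kg 8 rose and 2 fell in males, where 4.21% of all probes rose and 8.49% fell. The 8 include Hilpda, which passed the filter on low counts through treated mice, so its call is not independent of the filter. In females 3 were called raised and none lowered, where 2.26% of all probes rose. The counts of called genes became 6 in males and 7 in females with each sex fitted apart. Males at 0.5 mg/kg, where 0.625% of all probes were called, had 2 of these genes raised, Abhd5 (0.85 ± 0.22, adjusted p = 0.0905) and Abhd6. The call on Abhd5 was lost in 9 of 19 alternatives. Among 5 tested acyltransferases of the early steps, only Gpat3, a GPAT of the endoplasmic reticulum, was called, with 1.33 ± 0.33 in males (adjusted p = 0.00672). Among 4 diacylglycerol and monoacylglycerol lipases, only Abhd6, another monoacylglycerol lipase, was called. It rose by 1.72 ± 0.26 in males (8.26e-06) and 1.73 ± 0.26 in females (1.03e-05), from means of 24.2 and 26.5 CPM to 79.6 and 87.8, and by 1.22 ± 0.25 in males at 0.5 mg/kg (0.00834). The difference of this response between the sexes was −0.01 ± 0.37 (adjusted p = 1).

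Of 9 triglyceride lipases and their regulators, 4 rose and 1 fell in males and 1 rose in females. Pnpla2, which encodes the lipase ATGL, rose in females from a mean of 10.8 to 33.2 CPM (log2 fold change 1.61 ± 0.35, adjusted p = 0.00284). In males G0s2, the inhibitor of ATGL, rose from 16.1 to 85.5 CPM (2.42 ± 0.54, adjusted p = 0.00228), and Abhd5, its coactivator, from 41.6 to 71.6 (0.79 ± 0.24, 0.0288). Ces1d, a carboxylesterase that hydrolyses stored triglyceride, rose in males from 30.4 to 60.4 CPM (0.98 ± 0.32, 0.0501). In the other sex these genes were not called, but their means differed in the same direction. In females the means with vehicle and at 5 mg/kg were 25.4 and 68.2 CPM for G0s2 (1.43 ± 0.53, adjusted p = 0.164), 37.4 and 57.9 for Abhd5 (0.63 ± 0.23, 0.172) and 38.2 and 66.1 for Ces1d (0.79 ± 0.32, 0.23). In males they were 18.9 and 27.1 CPM for Pnpla2 (0.52 ± 0.35, 0.398). The difference in response between the sexes was not called for G0s2, Abhd5, Ces1d or Pnpla2 (adjusted p = 0.732, 0.976, 0.983 and 0.427). The calls on Abhd5 and Ces1d were lost with each sex fitted apart (0.127 and 0.166), that on Abhd5 without male replicate 4 at 5 mg/kg (0.17), and that on Ces1d without male replicate 1 or 3 at 5 mg/kg or vehicle male replicate 2 or 5 (up to 0.267). On probe Lipe_70030, Lipe, hormone-sensitive lipase, had 0 counts in all 4 males at 5 mg/kg and at most 14 in a vehicle male, too few for a fold (adjusted p = 0.0785, lost in 9 of 16 alternatives). With the probes of the gene summed the log2 fold change was −0.11 ± 1.45 (adjusted p = 0.984), so the fall was seen on this probe and not on the sum. The fourth gene that rose in males was Hilpda, which encodes another inhibitor of ATGL and fell outside the rule for named genes. Its mean in males was 2.44 CPM at 5 mg/kg and 0.104 with vehicle (adjusted p = 0.084, lost in 9 of 17 alternatives). No vehicle male had more than 4 counts of it and no vehicle female more than 13. Hilpda thus passed the filter on low counts through treated mice, and its call is not independent of the filter. With no filter its adjusted p was 0.122.

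In the phospholipid branch Chpt1, a cholinephosphotransferase that competes with DGAT for diacylglycerol, rose in both sexes, by 0.79 ± 0.23 in males (adjusted p = 0.0213) and 1.16 ± 0.23 in females (0.000801). The male call was lost without male replicate 1 at 5 mg/kg (0.28). Pemt, which methylates phosphatidylethanolamine, fell by 0.57 ± 0.16 in males (0.018), and the other 5 tested genes of the branch were not called. Of 3 genes of lipoprotein export, Mttp, which loads triglyceride onto apolipoprotein B, rose by 0.55 ± 0.15 in males (0.0151). Of 6 regulators, which include Srebf1, Nr1h3, Ppargc1a and Ppargc1b, none was called at 5 mg/kg in either sex, and the lowest adjusted p in males was 0.11. The median log2 fold change of the 6 was −0.57 in males and −0.19 in females. Ppara and Mlxipl fell outside the rule for named genes, and neither was called. Their values are given for males only. Values of the other regulators are not given, so these changes describe neither the 6 regulators as a set nor females. Ppara, the receptor HFPO-DA is known to activate, changed by −0.58 ± 0.23 in males (adjusted p = 0.116) and Mlxipl, which encodes ChREBP, by −0.71 ± 0.28 (0.11), and both were lower in the mean in males at 5 mg/kg (41.8 and 31.1 CPM) than with vehicle (62.8 and 51.7).

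**Figure D4:**
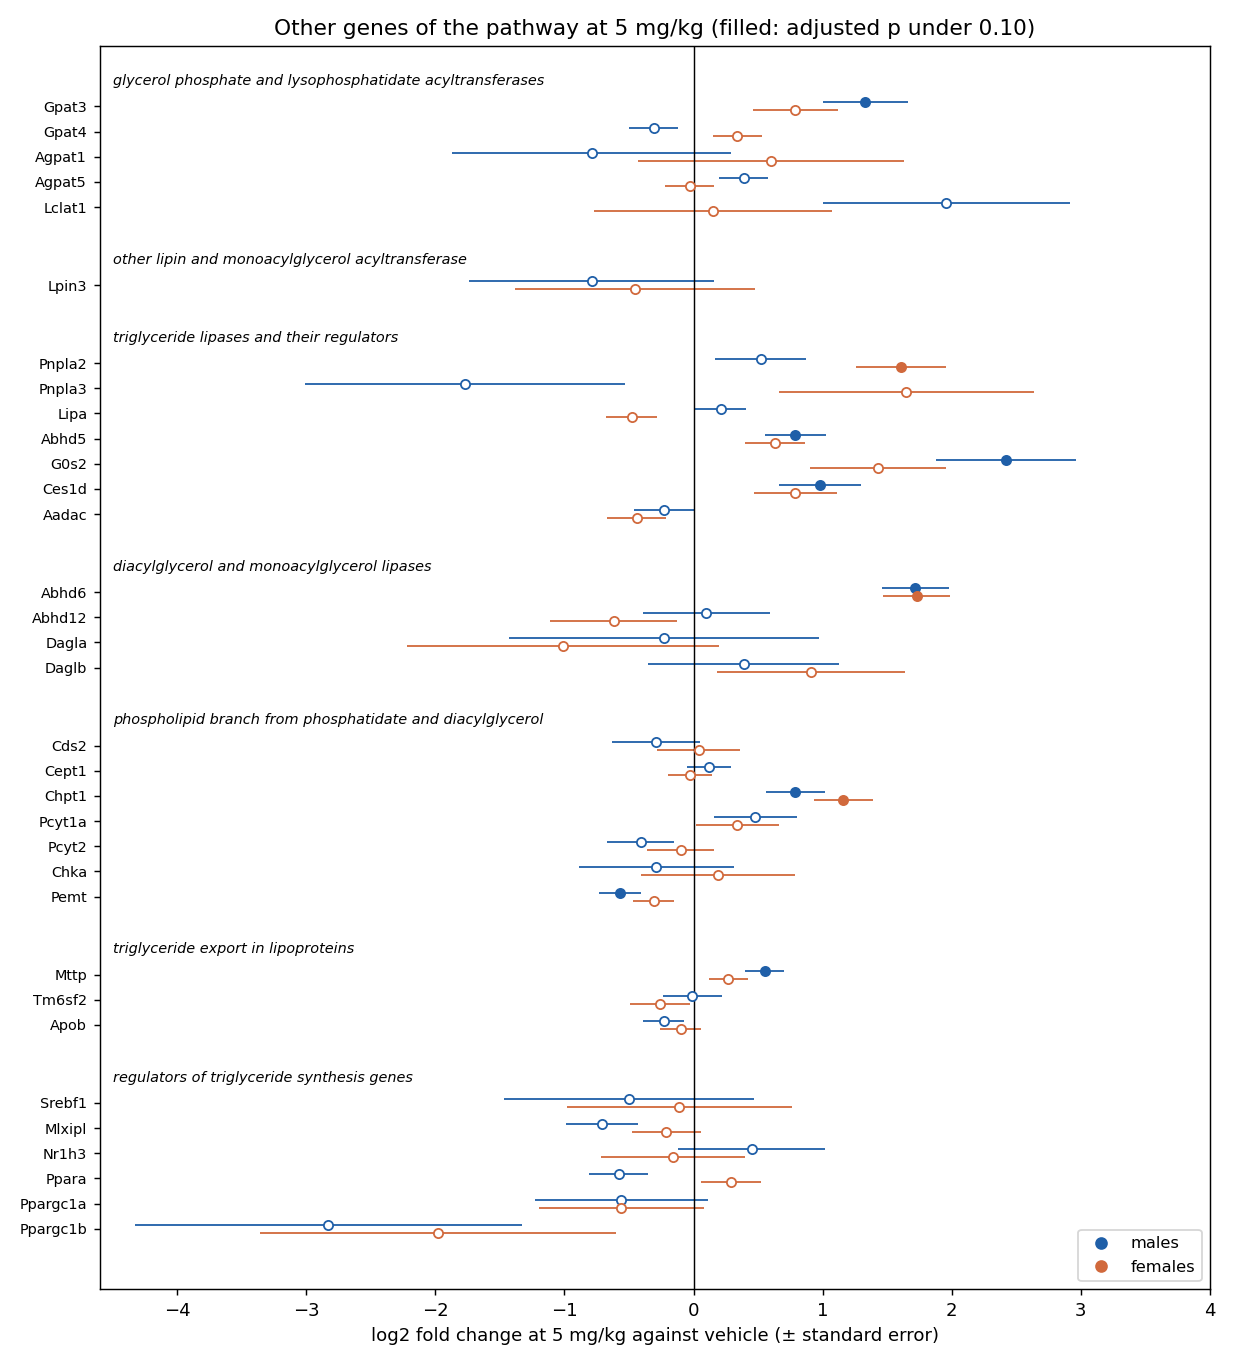
Log2 fold change at 5 mg/kg against vehicle (x axis) with its standard error for 33 of the 35 tested pathway genes outside the 9 members (y axis, grouped by role), males blue and females orange, filled where the adjusted p is under 0.10. Lipe and Hilpda are left out because their counts were near 0 in a group compared. Abhd6 and Chpt1 are filled in both sexes.

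The genes whose levels were most like those of each member were found by Pearson r of log2 CPM over all 37 mice, centred on the mean of each sex. The mice share doses, so these values include the response to dose. Mgll was closest to Aldh3a2 (r = 0.94), Hsd17b11 (0.90) and Decr1 (0.90). Gpam was closest to Dbi (0.85), Acsl5 (0.84) and Fads2 (0.83), and Lpin1 to Errfi1 (0.86), Pck1 (0.84) and Mast3 (0.83). Dgat2 was closest to Slc10a1 (0.85), Rdh7 (0.85) and Igfbp4 (0.84), while for Lpin2 the highest values were lower, with Mknk2 (0.71), Cebpb (0.71) and Mt1 (0.67). Mogat1 was closest to Mea1 (0.81), Mmadhc (0.80) and Gstt2 (0.80), Dgat1 to Tymp (0.76) and Smurf1 (0.70), Agpat3 to Pcbd2, Gm45233 and Cox6b1 (0.75 each), and Agpat2 to Gm7075 (0.71), Slc25a46 (0.69) and B3gat3 (0.69). Within groups, probes of the same gene had r from 0.32 for Mogat1 to 0.96 for 2 probes of Lpin1, and among the most abundant probe of each gene r was 0.59 for Dgat2 with Lpin2 and 0.44 for Dgat2 with Mgll.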

How the data were processed

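TempO-Seq was run by the study on fixed liver sections of 40 mice, of which the authors removed 3 for low depth or few probes, leaving 37. The authors deposited raw counts of reads per probe, made with bcl2fastq 2.17.1.14 and Bowtie per the labels, without normalization. Total counts per mouse ranged from 2101495 to 13878254, which limits the precision of probes with few counts. No 2 mice held identical counts.

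Low counts were filtered with filterByExpr over the 8 groups, leaving 18570 probes, and counts were scaled by TMM. The 8 group means were estimated together from all 37 mice by the quasi-likelihood test of edgeR 4.0.16 (R 4.3.3), with Benjamini-Hochberg adjustment over all probes and a threshold of 0.10, the FDR used in the study. The study used DESeq2, which served here as an alternative (1.42.0). Fold changes are ± a standard error, taken in edgeR as the size of the log2 fold change over the square root of the F statistic. Where a group is near 0 counts this value depends on the prior count. The labels name no separate cages or litters, and replicates were numbered in accession order. The model was tested on simulated data.

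The alternatives were DESeq2 size factors, separate fits of the sexes, no filter, a filter at a mean count of 10, robust estimation, summing the probes of a gene, thinning all libraries to the smallest total, a threshold of 0.05, DESeq2 itself and the removal of single mice. All member probes are described. Of the pathway lists, up to 5 called genes per list with the smallest adjusted p were named with values, and Hilpda, Ppara and Mlxipl besides. For each member the 3 genes most like it in level were named, except 1 that is not reported here. The members and lists were chosen with earlier results of these data known. Gene coordinates are from GENCODE M21 (GRCm38), promoters from RefSeq (GRCm38.p6).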

Additional observations from a re-analysis of the deposited data

Results flagged for a closer look

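The difference between males and females in the response of Mgll_75873 at 5 mg/kg was 1.25 ± 0.28 on the log2 scale by the interaction term of edgeR (adjusted p = 0.0256), higher in males. Sex cannot be told apart from age, number of doses and lactation.

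The 17 probes in the 8 groups of 4 or 5 mice gave 134 sets of values that were not all equal, and in 13 of them 1 mouse stood apart from the others by Dixon's criterion, which chance gives in about 1 of 20 independent sets. These sets are not independent, since all probes read the same mice, and in the 4 sets of Mogat1 a single value above 0 meets the criterion by itself. The highest value stood apart for Gpam in males at 0.5 mg/kg (217.8 CPM), for Agpat2 in vehicle males (201.2) and males at 0.5 mg/kg (124.4), and for Dgat1_74428 in females at 0.1 mg/kg (68.6). It also did for Lpin1_67972 in males at 0.1 mg/kg (162.5) and for Mgll_63987 in vehicle males (43.3) and vehicle females (54.3). The lowest value stood apart for Dgat2_68788 in females at 0.1 mg/kg (418.2 CPM) and for Mgll_63987 in females at 5 mg/kg (56.4). For Mogat1, 1 mouse had counts where the others of its group had none, on Mogat1_65574 in vehicle males (0.9 CPM) and on Mogat1_69164 in vehicle males (0.5), males at 0.1 mg/kg (0.7) and, counting 4 reads, females at 0.1 mg/kg (0.3).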

How the results depend on the processing

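Of 977 values of 54 single log2 fold changes under the alternatives, 871 kept their direction and side of the threshold, 96 lost the call, 5 gained one and 5 turned sign. All 5 that turned were of Dgat1_73123 in females at 5 mg/kg, −0.02 as fitted, 0.02 with probes summed and −0.1 to 0.04 without single mice. The number of member probes called in males at 5 mg/kg was 8 to 10 without single mice, and no setting moved it by over 1.5 times. In females at 5 mg/kg it was 5 to 9 without single mice. In males at 0.5 mg/kg, 1 probe was called, 0 with each sex fitted apart, 2 with probes summed and 0 to 1 without single mice. In females at 0.5 mg/kg, 1 was called, 0 at a threshold of 0.05, in a robust fit, with probes summed or with thinned counts, 2 by DESeq2 and 0 to 1 without single mice. In females between 0.5 and 5 mg/kg, 1 was called, 3 with each sex fitted apart, 2 with probes summed, thinned counts or DESeq2, and 0 to 1 without single mice. Between the vehicle groups, 2 were called, 0 at a threshold of 0.05 or in a robust fit, 1 with thinned counts, 4 with no filter and 0 to 2 without single mice. For the difference between the sexes at 5 mg/kg, 1 was called, 6 with no filter, 2 with probes summed or DESeq2 and 1 to 3 without single mice. A gene's sum counted for each of its probes. Of the pathway genes at 5 mg/kg, 10 passed in males, 6 in separate fits of the sexes and 8 to 10 without single mice. In females 3 passed, 7 in separate fits, 6 by DESeq2 and 3 without any single mouse. The causes were not tested. DESeq2 gave no adjusted p for Mogat1 in females at 5 mg/kg. The median log2 fold change of all probes in males at 5 mg/kg, −0.12 as fitted, was −0.026 with DESeq2 size factors. Counts were lowest in males at 5 mg/kg. No paired analysis was possible because replicate numbers follow accession order.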
